A study of Mus musculus with 4 samples.

Results

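CD8 T cells of the mouse retinal pigment epithelium (RPE) and choroid at 1 month of age were described by the genes they carried in single-cell RNA libraries. A barcode, the tag that stands for a cell, was taken as a CD8 T cell when it met 4 conditions. It had at least 300 genes and at most 30% of its unique molecules (UMIs) from mitochondrial genes. It had at least 1 UMI of 2 or more of the 5 T cell genes Cd3e, Cd3d, Cd3g, Trac and Trbc2. It had at least 1 UMI of Cd8a or Cd8b1, and it had no UMI of Cd4 or Cd79a. The rule found 191 CD8 T barcodes, 117 of the 1549 kept barcodes of the wild-type library and 74 of the 1819 of the knockout library. The barcodes were thus chosen by measured values, the UMIs of these genes, so their levels are given as a description and were not tested.

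The libraries came from wild-type (WT) mice and from Vldlr-/- mice, which lack the very low density lipoprotein receptor, a membrane receptor that takes up lipoproteins. Both groups were 1 month old, and there was 1 library per genotype. RPE and choroid were scraped from the eyecup after the neural retina had been lifted away, digested with enzymes, depleted of dead cells with a commercial kit and loaded on the 10x Genomics system with no sort for any cell type. The strain, the construction of the allele and the number of animals per library are not given in the sources used here.

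CD8 T cells are the lymphocytes that recognise peptides on MHC class I molecules through an αβ T cell receptor, with CD8 as the coreceptor. Naive CD8 T cells circulate between blood and lymphoid organs by means of homing receptors such as the chemokine receptor CCR7. After meeting antigen they become effector and memory cells, which store granzymes and perforin in granules and release chemokines such as CCL5, and some of them stay in tissues. The choroid is the vascular bed beneath the RPE, and cells taken from it may lie in its blood vessels or in the tissue around them. The files do not part these places.

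The effector genes that separate the CD8 T barcodes below have their own control regions, and the promoters of 3 of them are printed so that a reader can set the levels beside the DNA. They encode granzyme B, granzyme A and the fractalkine receptor CX3CR1. Each run is the 250 bases before the gene's start, read 5′ to 3′ on the gene's strand, from the RefSeq table for GRCm38.p6. Capitals mark the core bound by RUNX factors (TGTGGT or ACCACA) and the core bound by T-box factors (TCACAC or GTGTGA), each searched on both strands, and the 2 motifs share no bases. The RUNX core occurred in 14.0% and the T-box core in 12.3% of the 32817 promoter windows of this length. Of 11 genes looked for (Ccl5 and the 10 genes with the largest fitted rise in Ccl5-positive barcodes), 8 had an entry. The RUNX core was found for 5 of these 8 (Gzma, Gzmb, Cx3cr1, Klrc2 and Acot7) and the T-box core for 2. A match is a description of letters and shows no binding.
Gzmb, chr14:56262335-56262584, minus strand: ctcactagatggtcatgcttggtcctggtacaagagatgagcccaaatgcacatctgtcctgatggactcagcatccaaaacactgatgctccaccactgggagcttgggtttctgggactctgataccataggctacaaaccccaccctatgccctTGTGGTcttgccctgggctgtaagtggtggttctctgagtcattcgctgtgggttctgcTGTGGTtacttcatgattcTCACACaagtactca
Gzma, chr13:113100982-113101231, minus strand: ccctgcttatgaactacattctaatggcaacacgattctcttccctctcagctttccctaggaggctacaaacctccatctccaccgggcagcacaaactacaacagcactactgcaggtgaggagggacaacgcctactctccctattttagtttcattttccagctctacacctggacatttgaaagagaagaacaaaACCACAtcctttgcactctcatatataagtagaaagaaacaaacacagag
Cx3cr1, chr9:120068297-120068546, minus strand: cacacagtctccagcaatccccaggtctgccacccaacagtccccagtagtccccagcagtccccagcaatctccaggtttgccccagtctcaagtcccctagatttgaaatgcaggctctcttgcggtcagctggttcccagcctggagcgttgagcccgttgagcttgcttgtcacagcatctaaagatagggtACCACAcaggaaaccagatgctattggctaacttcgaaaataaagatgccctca

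The first counts below are of genes that the rule used, so they describe the barcodes and do not support the label. All 5 T cell genes were seen in 112 of 117 wild-type and 69 of 74 knockout barcodes, and both Cd8a and Cd8b1, the chains of the coreceptor, in 102 and 67. Barcodes with Cd8b1 alone numbered 12 and 7, and barcodes with Cd8a alone, the form that many unconventional T cells carry, 3 and 0. Just inside the rule lay 7 wild-type and 3 knockout barcodes with a total of 1 UMI of Cd8a and Cd8b1, and 1 and 2 barcodes with 2 of the 5 T cell genes. Just outside lay 5 and 3 barcodes with 1 of the 5 genes, 6 and 11 with a UMI of Cd4 as well, and 8 and 11 with a UMI of Cd79a, a B cell gene. A minimum of 5 UMIs of Cd8a and Cd8b1 was met by 105 and 68. The γδ T cell constant gene Trdc, which the rule did not use, had 3 or more UMIs in 3 and 1 barcodes. The lineage factors Runx3 and Zbtb7b, also outside the rule, are compared with CD4 T barcodes below.

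RNA of other cells was present in part of these barcodes. At least 20 UMIs of a marker list of non-lymphoid cells were carried by 4 wild-type and 2 knockout barcodes. Of the 833 myeloid list UMIs in the wild-type barcodes 715 lay in 1 barcode, and of the 865 red blood cell list UMIs 573 lay in 1. Of the 764 rod photoreceptor list UMIs in the knockout barcodes 442 lay in 1. The B cell list summed to 431 and 274 UMIs and the RPE list to 116 and 59. The NK cell list of 14 genes summed to 4730 and 1446 UMIs, of which Gzma, which CD8 T cells also express, gave 3934 and 1123. Txk, which is counted in the naive list below as well, gave 382 and 219 UMIs over 104 and 64 barcodes. Of the receptor genes of the NK list, Klre1 gave 204 UMIs over 33 barcodes of the wild type and 58 over 14 of the knockout. Klra9 gave 52 and 12 UMIs, Klrb1c 14 and 3, and Klra8 2 and 16, all 16 in 1 barcode. Tyrobp had 81 and 10 UMIs, with 63 in 1 wild-type barcode, and Fcer1g 56 and 2, with 44 in 1. Ncr1 had 2 and 0, and Klra4, Klrb1a and Klrb1b were at 0 in both libraries. The surface epithelium list held 1 UMI in each library. No doublet caller was run, and results were instead recomputed without the 6 mixed barcodes.

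The whole libraries summed to 11194301 UMIs in wild type and 12022513 in knockout. The median CD8 T barcode held 10382 UMIs (4420 to 22488) and 2677 genes in wild type, and 10508 UMIs (542 to 22831) and 2564 genes in knockout. No barcode was shared between the 1-month libraries. Vldlr, the deleted gene, gave 0 and 1 UMIs in the CD8 T barcodes. In kept barcodes without Cd3 genes it gave 249 UMIs (33.9 CPM, counts scaled to a library total of 1000000) and 393 UMIs (45.4 CPM), so its 3′ counts do not mark the genotype. Xist without any Y-linked RNA was seen in 43 wild-type and 50 knockout CD8 T barcodes, and Y-linked RNA without Xist in 40 and 16. Each library therefore held cells of animals of both sexes, and the sexes were not in the same proportion. By Ccl5 range, described below, Xist was seen in 26 of 59 wild-type and 26 of 32 knockout barcodes with 10 or more Ccl5 UMIs and in 22 of 58 and 25 of 42 of the others, and its part in the results was not tested.

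CD8 T cells made up a larger share of the wild-type library. They were 7.55% of its kept barcodes (exact Clopper-Pearson 95% interval 6.29 to 8.98, n = 1549) and 4.07% of the knockout's (3.21 to 5.08, n = 1819). The intervals did not overlap. Among T barcodes they were 48.8% of 240 (42.3 to 55.3) in wild type and 44.3% of 167 (36.6 to 52.2) in knockout, and these intervals did. CD4 T barcodes were 30% and 29.9% of T barcodes, natural killer (NK) barcodes 3.62% and 1.21% of kept barcodes, and B barcodes 16.3% and 15.0%. All such intervals cover counting error only. With 1 library per genotype no replicate error exists and no test of genotype was possible, and fewer T cells in the tissue, more of other cells and losses in digestion cannot be told apart. With 1000 genes required per barcode the shares were 9.92% and 5.11%.

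Ccl5, which encodes a chemokine of effector and memory T cells, split the CD8 T barcodes into a low and a high range with few between. It had 0 UMIs in 36 of 117 wild-type barcodes, 1 or 2 in 19, 3 to 9 in 3, 10 to 49 in 5 and 50 or more in 54. In the knockout library the same ranges held 34, 7, 1, 3 and 29 of 74 barcodes. No wild-type barcode lay between 7 and 20 UMIs and no knockout barcode between 3 and 25. At least 10 UMIs were thus carried by 59 wild-type barcodes (50.4%, 41.0 to 59.8) and 32 knockout barcodes (43.2%, 31.8 to 55.3), with medians of 310 and 291.5 UMIs. The shares overlapped within counting error.

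**Figure D1:**
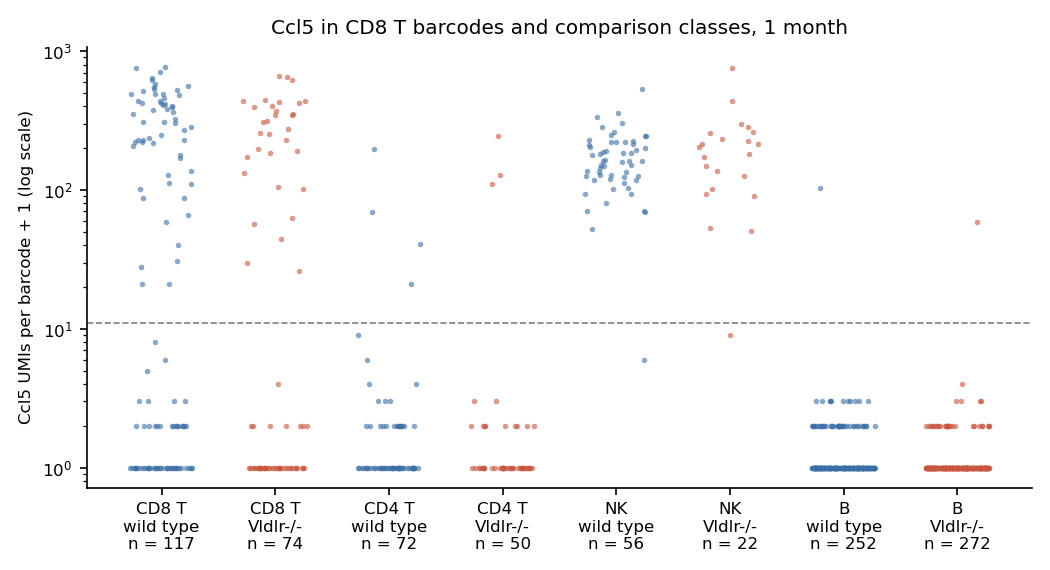
Ccl5 UMIs of every barcode, by class and library. Each point is a barcode, the vertical axis is UMIs + 1 on a log scale, and the dashed line stands at 10 UMIs. CD8 T barcodes form a low and a high group in both libraries, with 59 of 117 wild-type and 32 of 74 knockout barcodes at or above the line.

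The split was also visible against the other lymphocytes. At least 10 UMIs of Ccl5 were found in 55 of 56 and 21 of 22 NK barcodes, in 4 of 72 and 3 of 50 CD4 T barcodes, and in 1 of 252 and 1 of 272 B barcodes (wild type and knockout). A single UMI or more was found in 20.6% and 12.1% of B barcodes, which are not a source of this RNA, so 1 or 2 UMIs in a CD8 T barcode are not above the background of free RNA. The limit of 10 UMIs was set after these counts had been seen. The ranges are ranges of RNA content and not cell types, and 2 wild-type and 0 knockout barcodes lay between 5 and 19 UMIs.

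The 2 ranges differed in depth. Barcodes with 10 or more Ccl5 UMIs had a median of 9379 UMIs and 2738 genes in wild type and 8023 UMIs and 2419 genes in knockout. Those with fewer had 11336 UMIs and 2667 genes, and 11865 UMIs and 2699 genes. The high range thus had fewer UMIs per barcode in each library, with more genes in wild type and fewer in knockout.

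Genes of naive and recirculating T cells filled the low range. Ccr7, the receptor for lymph node chemokines, had a UMI in 57 of 58 wild-type and 38 of 42 knockout barcodes of the low range, against 5 of 59 and 2 of 32 of the high range. Il7r, the interleukin 7 receptor chain that keeps naive and memory T cells alive, was seen in 87.9% and 90.5%, against 20.3% and 28.1%. Lef1, a transcription factor of naive T cells, was less sharply divided, with 94.8% and 92.9% in the low range and 47.5% and 50.0% in the high range. In each of these genes both libraries showed the same order.

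Effector genes filled the high range. Gzma, granzyme A, was seen in 46 of 59 wild-type (78.0%) and 21 of 32 knockout (65.6%) barcodes, with a median over the high range of 5943 and 4141 CPM per barcode. Gzmb, granzyme B, was seen in 83.1% and 75%, Gzmk, granzyme K, in 69.5% and 78.1%, Prf1, perforin, in 78.0% and 78.1%, and Ifng, interferon γ, in 57.6% and 59.4%. Cx3cr1 was seen in 39 of 59 and 21 of 32 barcodes and Klrg1, an inhibitory receptor of effector cells, in 38 of 59 and 22 of 32. Neither had a UMI in the 58 and 42 barcodes of the low range, which allows a share of barcodes with a UMI of up to 6.16% and 8.41% (exact upper bounds) and sets no limit on cells that express them.

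**Figure D2:**
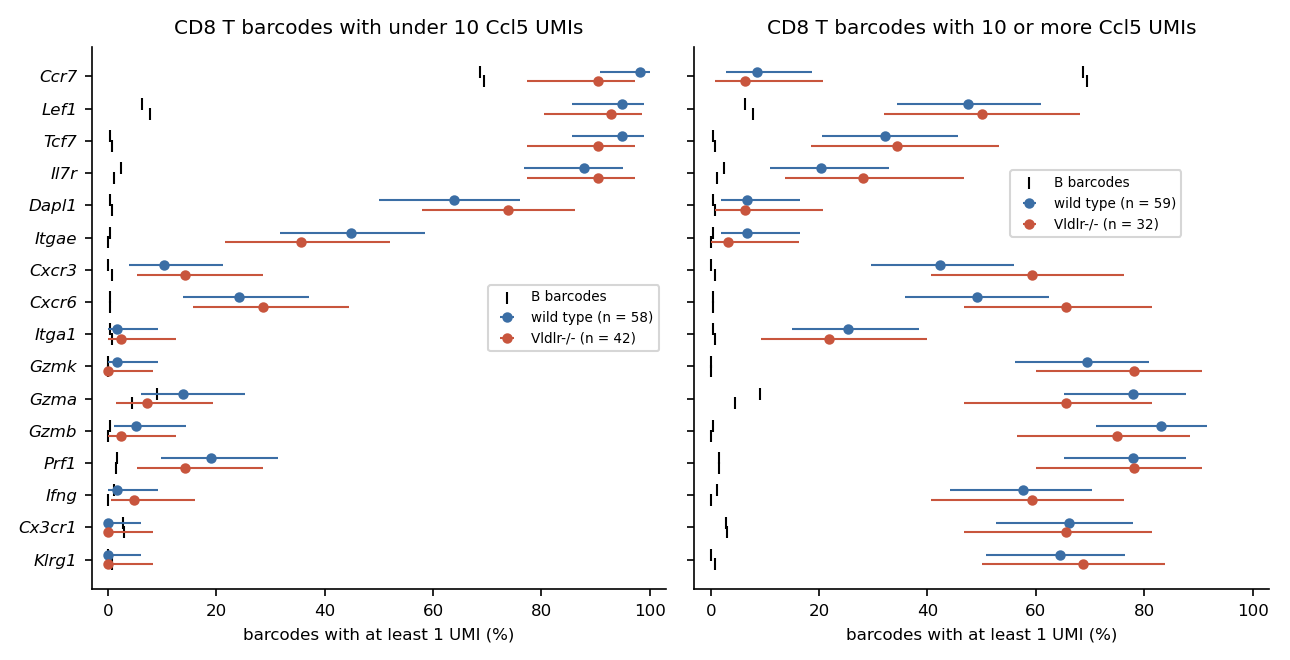
Share of CD8 T barcodes with at least 1 UMI of each gene, on the left for barcodes with under 10 UMIs of Ccl5 (58 wild type, 42 knockout) and on the right for those with 10 or more (59 and 32). Points are shares in percent, bars are exact 95% intervals and black ticks are the shares of B barcodes in the same libraries. Ccr7 and Il7r are high on the left and low on the right, and Gzma, Gzmb, Cx3cr1 and Klrg1 the reverse, in both libraries.

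Over all CD8 T barcodes, shares depended on depth, so each barcode was also thinned to 1000 UMIs, which left out 0 wild-type and 2 knockout barcodes. Nkg7, a granule protein gene, was seen in 91.5% and 93.2% of barcodes before thinning and in 65.8% and 65.3% after it. B barcodes, with median depths of 6245.5 and 6182 UMIs, held it in 3.57% and 1.84%. Ccl5 went from 69.2% and 54.1% to 52.1% and 43.1%, close to the shares at or above 10 UMIs. Gzma went from 46.2% and 32.4% to 36.8% and 29.2%, with 9.13% and 4.41% of B barcodes as background. Gzmk went from 35.9% and 33.8% to 13.7% and 19.4%, and no B barcode had it.

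The thinned shares of Lef1 and Il7r lay close together in the 2 libraries, and those of Dapl1, another gene of the naive list, lay further apart. Dapl1 was at 12.8% (7.36 to 20.3) and 29.2% (19 to 41.1) after thinning (35.0% and 44.6% before), and these intervals overlapped. Lef1 was at 27.4% and 26.4% after thinning (70.9% and 74.3% before) and Il7r at 27.4% and 27.8% (53.8% and 63.5%). Ccr7 was at 23.1% and 16.7% (53.0% and 54.1%). B cells express Ccr7 themselves, with 68.7% and 69.5% of barcodes, so they give no background for it. For Lef1 they held 6.35% and 7.72% and for Il7r 2.38% and 1.10%. Cxcr3, a chemokine receptor of memory cells, was at 5.13% and 13.9% (26.5% and 33.8%), and Itgae, the αE integrin, at 6.84% and 4.17% (25.6% and 21.6%), each the share of a small number of barcodes.

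Counts were summed over the Ccl5-positive barcodes (at least 1 UMI, 81 and 40) and the Ccl5-zero barcodes (36 and 34) of each library, and the sums were compared with edgeR's quasi-likelihood test with Benjamini-Hochberg adjustment and the library as a block. Of 7412 genes, 334 were higher in the Ccl5-positive barcodes (4.51%) and 304 were lower (4.1%) at an adjusted p under 0.05. Ccl5 is counted in the same barcodes as the genes tested, and it was chosen with earlier results known. The p-values measure only the spread between 2 libraries that differ in genotype, with 1 residual degree of freedom and moderation across genes. With the ranges below and above 10 UMIs in place of this split, an alternative chosen after seeing the data, 279 genes were higher and 297 lower, and 483 genes were called both ways.

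Of 31 cytotoxic and memory genes tested, 30 were higher in Ccl5-positive barcodes, with a median log2 fold change of 4.70, or 3.31 with the 5 genes at 0 in the Ccl5-zero barcodes set at their bound. The median of all genes tested was -0.00. Gzma was at 4215 CPM against 10.5 in wild type and at 2854 CPM against 0 in knockout, which is at least 384-fold higher over a floor of 3 UMIs per library (adjusted p = 1.14e-20). Gzmb was at 722 against 5.26 CPM in wild type and at 610 against 0 in knockout, at least 82.1-fold higher (adjusted p = 1.26e-14). Cx3cr1 gave 294 UMIs against 0 in wild type and 124 against 0 in knockout, at least 40.0-fold and 42.4-fold higher (adjusted p = 3.61e-12). In each library these genes were found almost wholly in the Ccl5-positive sum.

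Surface receptors of effector cells were likewise at 0 in the Ccl5-zero sums. Klrg1 gave 155 wild-type and 73 knockout UMIs, at least 21.1-fold and 25-fold higher. Fasl, the ligand that triggers death through Fas, gave 100 and 49 UMIs, at least 13.6-fold and 16.8-fold higher. Klrc2, an activating receptor of the NKG2 family, gave 56 and 52 UMIs, at least 7.62-fold and 17.8-fold higher. The rule for named genes also took the long noncoding RNA Gm4208 (67 and 19 UMIs), the interferon-induced membrane gene Ifitm1 (21 and 26) and the acyl-CoA thioesterase gene Acot7 (44 and 16), each at 0 in the Ccl5-zero barcodes of both libraries. Reads of Klrc2 may be shared with its near copies Klrc1 and Klrc3.

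Some of the list was present on both sides of the split. Nkg7 was at 2412 against 549 CPM in wild type and 2440 against 567 in knockout, a log2 fold change of 1.91 (SE 0.11, adjusted p = 1.57e-12). Klrd1, which pairs with NKG2 receptors, was at 678 against 249.6 CPM and 640.4 against 391 CPM (0.86, SE 0.17, adjusted p = 0.00071). Ly6c2, a surface protein of memory CD8 T cells, was at 1065 against 89.3 and 968 against 279.7 CPM (2.32, SE 0.23, adjusted p = 2.86e-08). The exception in the list was Cst7, an inhibitor of granule proteases, with 0.79 (SE 0.33, adjusted p = 0.174).

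The same list holds transcription factors and surface genes. Among its transcription factors, Tbx21 had 54 UMIs against 0 in wild type and 34 against 1 in knockout (5.41, SE 0.69, adjusted p = 1.6e-06), Zeb2 had 272 against 11 and 97 against 0 (4.03, SE 0.38), and Eomes had 33 against 5 and 27 against 2 (2.24, SE 0.53, adjusted p = 0.00504). The small calcium-binding genes S100a4 and S100a6 rose by 6.04 and 5.30, Lgals1, galectin 1, by 3.02, and Id2, which restrains E proteins, by 2.21. The integrin chain Itgb1 rose by 2.23 and Il2rb, the receptor chain shared by interleukins 2 and 15, by 1.35. Cd44, the adhesion receptor used to mark antigen-experienced T cells, was low throughout, with 42 against 2 and 14 against 5 UMIs (1.98, SE 0.53, adjusted p = 0.0146).

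Of 19 naive and recirculating genes tested, 17 were lower in Ccl5-positive barcodes, with a median of -1.51. Ccr7 was at 122 against 444 CPM in wild type and 76.2 against 312 CPM in knockout, a log2 fold change of -2.12 (SE 0.18, adjusted p = 3.09e-09). Dapl1, a gene of naive and early memory CD8 T cells, was at 183 against 497 and 285 against 938 CPM (-1.78, SE 0.16, adjusted p = 3.38e-09). Lef1 was at -1.53, Tcf7, its partner in naive and stem-like T cells, at -1.30, the chromatin organiser Satb1 at -1.41, S1pr1, the receptor that lets T cells leave lymph nodes, at -1.13, Il7r at -1.12 and Klf2, which drives S1pr1, at -0.56. Foxo1 (-0.73, adjusted p = 0.0905) and Txk (-0.30, adjusted p = 0.391) did not pass.

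Tissue residency genes went both ways. Of 11 tested, 6 were higher, beside 4.51% of all genes, 1 was lower, beside 4.1%, and 4 did not pass, with a median of 1.90, or 0.35 with Xcl1 at its bound. Cxcr6, a chemokine receptor of tissue T cells, was at 112 against 31.5 CPM in wild type and 246.5 against 49.5 in knockout (1.90, SE 0.27, adjusted p = 9.9e-06). Itga1, the α1 integrin, had 30 against 2 and 14 against 1 UMIs (2.85, SE 0.67, adjusted p = 0.00525), and Rgs1 (2.13) and Bhlhe40 (3.42) were also higher. Itgae went the other way, at 34.3 against 78.8 CPM and 20.3 against 52.0 CPM (-1.44, SE 0.34, adjusted p = 0.00515). Cd69 (-0.25, adjusted p = 0.563) and Runx3 (0.27, adjusted p = 0.571) did not pass, and Zfp683, a factor of resident cells, had no UMI in either library.

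Ccr9, a gut-homing receptor gene, was lower like Itgae. It was at 10.7 against 137 CPM in wild type and 12.7 against 64.4 CPM in knockout (-3.43, SE 0.38, adjusted p = 2.13e-07).

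Other genes named among the lower ones were Tdrp (-2.83, adjusted p = 1.03e-07), Ldhb, a lactate dehydrogenase subunit (-2.80, SE 0.60, adjusted p = 0.00195), Ift80 (-2.48) and the transcripts A630023P12Rik (-2.90) and B630019A10Rik (-2.61). Vtn (-4.16), vitronectin, Pde6b (-2.75), a rod gene, Rangrf (-2.73) and Lman2l (-2.50) lost their calls with the ranges below and above 10 UMIs (adjusted p 0.054, 0.0512, 0.0559 and 0.0768). The rod list had 7 of 11 genes lower with the split at 1 UMI and 0 of 11 with the ranges. Mitochondrially encoded respiratory chain genes were lower for 7 of 13 (median -0.38), among them mt-Nd1 (-0.43, adjusted p = 0.00439). Nuclear respiratory chain genes were called for 2 of 45 and glycolysis genes for 0 of 15.

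Genes of antigen presentation and division were higher in part. Of 18 MHC class I pathway genes 5 were higher and 0 lower (median 0.37). H2-Q7, a nonclassical class I gene with close copies, was at 1183 against 552 and 1309 against 470 CPM (1.08, SE 0.13, adjusted p = 6.78e-07), and H2-D1, a classical class I gene, at 2704 against 1503 and 2823 against 1525 CPM (0.66, SE 0.10, adjusted p = 1.48e-05). Of 34 interferon response genes 7 were higher and 0 lower, and 2 with the ranges. Of 18 cell cycle genes 8 were higher, with a median of 1.65, or 1.38 with Cdk1 and Ccna2 at their bounds. Few barcodes carried much of this list. Of its 2576 wild-type UMIs, 400, 342, 264, 254 and 230 lay in 5 barcodes, 4 of them with 10 or more Ccl5 UMIs. Of its 893 knockout UMIs, 143 and 70 lay in 2 barcodes, 1 of them with 10 or more. The part of these barcodes in the calls was not tested.

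Within the high range the effector genes did not occur in the same barcodes throughout. Cx3cr1 and Klrg1 were seen together in 34 of 59 wild-type barcodes, Cx3cr1 alone in 5, Klrg1 alone in 4 and neither in 16, and in knockout the counts were 19, 2, 3 and 8 of 32. Cx3cr1 and Cxcr6 were together in 16, Cx3cr1 alone in 23, Cxcr6 alone in 13 and neither in 7 in wild type, and 14, 7, 7 and 4 in knockout. Gzma and Gzmb were together in 45 of 59 and 18 of 32. Of the 15 and 7 barcodes with Itga1, 13 and 7 also had Cxcr6. Detection at these depths misses low RNAs, so a gene not seen is not a gene not expressed, and these counts are a description.

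Inhibitory receptor genes gave few UMIs. Pdcd1 gave 2 and 6 over all CD8 T barcodes, Tigit 2 and 3 and Havcr2 6 and 6, which is under the minimum for any comparison. Of 10 genes of the list 6 were tested in the Ccl5 split, and 2 were higher in Ccl5-positive barcodes. Cd160, a receptor of cytotoxic cells, gave 79 UMIs against 2 (wild type) and 28 against 6 (knockout) (2.73, SE 0.45, adjusted p = 7.75e-05), and Entpd1, the ectoenzyme CD39, had 12 against 0 in each library (adjusted p = 0.00965). Lag3 had 10 against 2 and 10 against 1 UMIs (1.88, SE 0.93, adjusted p = 0.266). Between the libraries 3 genes of the list had enough UMIs, among them Tox, which is a transcription factor and not a receptor. Log2 ratios of knockout to wild type were 1.03 for Ctla4 (0.02 to 2.09), 1.02 for Tox and -0.52 for Cd160 (-1.16 to 0.06).

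CD8 T barcodes were next compared with CD4 T barcodes of the same libraries (72 and 50), taken by the same rule with Cd4 in place of Cd8a and Cd8b1. The fit held the summed counts of the CD8 T, CD4 T, NK and B classes in both libraries with the library as a block and 3 residual degrees of freedom, and genes used by any class rule were left out of the counts. Of 9850 genes, 270 were higher in CD8 T (2.74%) and 216 lower (2.19%) by edgeR's quasi-likelihood test with Benjamini-Hochberg adjustment, with a median over all genes of 0.01. The contrast was repeated with barcodes of fewer than 10 Ccl5 UMIs in both classes (58 and 42 CD8 T, 68 and 47 CD4 T), an alternative added after seeing the data.

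The transcription factors of the CD8 and CD4 lineages lay apart. Runx3, the factor that silences Cd4 in CD8 T cells, was at 177 against 48.9 CPM in wild type and 163 against 48.0 CPM in knockout, a log2 fold change of 1.87 (SE 0.20, adjusted p = 4.7e-06). Zbtb7b, the factor of the CD4 lineage also called ThPOK, was at 7.62 against 24.4 and 2.51 against 34.0 CPM (-2.29, SE 0.52, adjusted p = 0.00991). Tox, needed for CD4 lineage choice, was lower in CD8 T (-1.20, adjusted p = 0.00941), as were Ets1 (-0.62) and Runx1 (-0.94). Of the 8 genes of the CD8 lineage list that were tested 4 were higher and 3 lower, and Patz1 (-0.72, adjusted p = 0.535) did not pass.

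Of 13 CD4 lineage genes 11 were lower in CD8 T, with a median of -2.72. Cd40lg, the CD40 ligand by which CD4 T cells help B cells, was at 3.05 against 108 CPM in wild type and 1.25 against 86.0 CPM in knockout (-5.29, SE 0.48, adjusted p = 1.21e-06). Tnfrsf4, the costimulatory receptor OX40, was at -3.99, Foxp3, the factor of regulatory T cells, at -3.31 (adjusted p = 0.0163), Ctla4 at -2.74 and Izumo1r, a folate receptor family gene of regulatory T cells, at -2.72. St8sia6, a sialyltransferase gene, was at -5.92. Gata3 was at -0.82 (adjusted p = 0.109). In the low Ccl5 range 8 of the 13 were lower, with a median of -2.52.

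Cytotoxic genes were the largest group on the CD8 side. Of 32 tested 29 were higher in CD8 T and 0 lower, with a median of 2.46, and in the low Ccl5 range 6 of 30 were higher and 4 lower, with a median of 0.20. That range is set by Ccl5, a gene of this list. Gzma was at 2997 against 164 CPM in wild type and 1408 against 346 CPM in knockout (3.1), and in the low range at 0.19 (adjusted p = 0.978). Gzmb was at 514 against 21.6 and 301 against 34.0 CPM (3.96). Gzmk had 201 against 3 UMIs in wild type and 80 against 0 in knockout, where it was at least 16.7-fold higher. Gzma thus lay apart over all barcodes and did not pass in the low range.

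A smaller set separated CD8 from CD4 T barcodes in the low range too. Nkg7 was at 567 against 25.9 CPM in wild type and 554 against 6.42 CPM in knockout in that range (5.17, adjusted p = 9.04e-12), and at 3.53 (SE 0.18) over all barcodes. Ly6c2 was at 6.48 in the low range and 4.08 over all barcodes, Klrd1 at 3.93 and 2.99, and Ctsw, a cysteine protease gene of cytotoxic cells, at 3.46 and 3.07. Eomes and Cst7 were the others called higher. Ccr2, S100a6, Cd44 and Itgb1 were lower in CD8 T there. Dapl1 (1.24, adjusted p = 0.000108) and Tdrp (1.12, adjusted p = 0.0159) were the naive list genes that were higher in CD8 T in the low range, and Igfbp4 and Ly6c1 those that were lower.

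**Figure D3:**
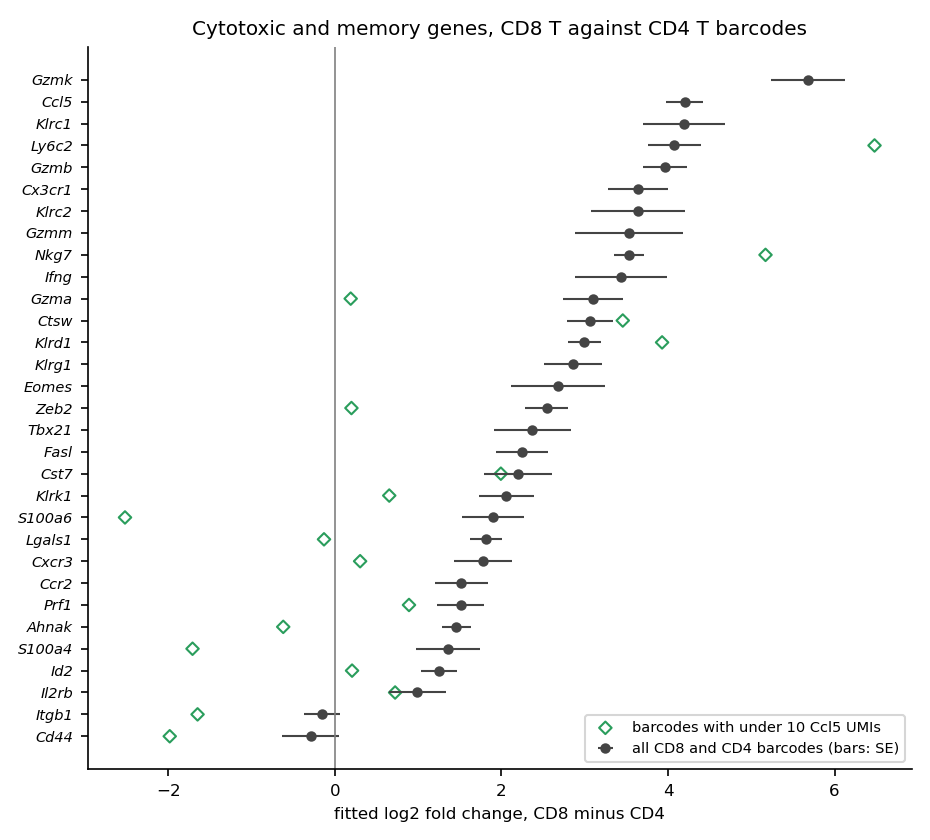
Fitted log2 fold change of cytotoxic and memory genes, CD8 T minus CD4 T. Dots are all barcodes of both classes with bars of 1 standard error, and diamonds are barcodes with under 10 UMIs of Ccl5, drawn where both classes had more than 3 UMIs and not for Ccl5, which sets the range. Nkg7, Ly6c2, Klrd1 and Ctsw stay to the right in both, while Gzma lies near 0 in the low range.

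Integrin and chemokine receptor genes also lay apart. Itgae was at 47.2 against 1.44 CPM in wild type and 36.4 against 4.0 CPM in knockout (4.05, SE 0.63, adjusted p = 0.000317). Ccr9 was at 47.2 against 4.31 and 38.9 against 4.0 CPM (3.39, SE 0.56, adjusted p = 0.000849). Cxcr6 was at 88.4 against 20.1 and 146.7 against 6.0 CPM (3.02, SE 0.48, adjusted p = 0.000445), and in the low range at 2.69 (adjusted p = 0.0747). Of 12 residency genes 5 were higher in CD8 T and 0 lower (median 1.35). In the low Ccl5 range 2 of 11 were higher and 1 lower, with a median of -0.02. In that range Itgae gave 57 UMIs against 1 in wild type and 26 against 2 in knockout. It was seen there with Ccr7 in 26 wild-type and 14 knockout CD8 T barcodes, and without it in 0 and 1. The class I gene H2-Q7 was at 1000.1 against 464 and 884 against 360 CPM (1.26, SE 0.15, adjusted p = 1.42e-05), 6 of 18 class I pathway genes were higher, and 1 of 18 in the low range.

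The largest rises by the rule for named genes included genes with no UMI in the CD4 T sums. Gm4208 gave 67 against 0 UMIs in wild type and 19 against 0 in knockout, at least 11.8-fold and 3.97-fold higher. Adgrg5, an adhesion receptor gene, gave 25 and 20 UMIs against 0, at least 4.42-fold and 4.18-fold higher (adjusted p = 0.0034). Gm43698 (20 and 24 UMIs), Gm44175 (25 and 15), Cnr2, the cannabinoid receptor of immune cells (8 and 7), and Chst15 (10 and 5) were also against 0. Cd160 gave 81 against 2 and 34 against 0, Wdr95 84 against 1 and 27 against 0, Klra9 52 against 1 and 12 against 0, and Haao 33 against 1 and 22 against 0. Slamf7, a receptor of cytotoxic lymphocytes, was at 111 against 2.87 and 82.8 against 6.0 CPM (4.56, SE 0.37, adjusted p = 1.17e-07). Klra9 is one of a family of near copies, and its reads may be split among them.

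Among the genes lower in CD8 T, several belong to other cells. Col11a1, a collagen gene, gave 0 against 57 UMIs in wild type and 1 against 2 in knockout, Nbl1 0 against 20 and 0 against 1, and Crispld2 1 against 32 and 1 against 15. Of 10 fibroblast list genes 7 were lower in CD8 T, with a median of -1.62, and of 5 RPE genes 3 were lower. The part of fibroblast RNA in these calls was not tested. The other names given by the rule were Klra4, Lynx1, Homer3, Ckap4, Rgl1, Kitl and Pla2g4a.

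Against NK barcodes (56 and 22), which share the cytotoxic machinery but lack a T cell receptor, 515 of 9850 genes were higher in CD8 T (5.23%) and 409 lower (4.15%) by the same fit, with a median of 0.07. Of 17 T cell receptor signalling genes 13 were higher and 0 lower (median 1.41). Cd6, a costimulatory receptor, gave 169 against 0 UMIs in wild type and 115 against 0 in knockout, at least 18-fold and 8.72-fold higher. Themis, an adaptor needed for thymic selection, gave 164 and 80 against 0, at least 17.5-fold and 6.07-fold higher. Cd5, which dampens receptor signals, was at 134 against 2.38 and 129 against 5.51 CPM (5.46, SE 0.53), and Lat, the membrane adaptor of the receptor, at 495 against 88.2 and 349 against 82.7 CPM (2.55, SE 0.23). These genes were not used by the rule and separated the classes in both libraries.

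Naive genes were higher in CD8 T than in NK barcodes for 14 of 20 and lower for 2, with a median of 3.02, or 2.13 with 5 genes at their bounds. Dapl1 gave 360 and 491 UMIs against 0, at least 38.3-fold and 37.2-fold higher (adjusted p = 1.5e-09). Il7r was at 379 against 16.7 and 502 against 127 CPM (3.27, SE 0.39). With CD8 T barcodes of 10 or more Ccl5 UMIs alone, an alternative added after seeing the data, 6 of the 20 were higher and 4 lower.

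Cytotoxic genes were lower in CD8 T than in NK barcodes for 22 of 32 and higher for 6, with a median of -1.14. Prf1 was at 104 against 1235 CPM in wild type and 86.5 against 1146 CPM in knockout (-3.39, SE 0.20, adjusted p = 3.4e-10). Gzma was at 2997 against 14007 and 1408 against 12891 CPM (-2.43, SE 0.32, adjusted p = 1.37e-05). Eomes (-2.66) and Tbx21 (-2.17), the T-box factors of cytotoxic cells, were lower too. With the 59 and 32 CD8 T barcodes of the high Ccl5 range 8 were lower and 6 higher (median -0.32), with Prf1 at -2.49 and Gzma at -1.37 (adjusted p = 0.00886). The genes tested there include Ccl5, which sets the range. Ccl5 itself was at -0.62 over all CD8 T barcodes (adjusted p = 0.0436).

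Within the cytotoxic list 6 genes were higher in CD8 T than in NK barcodes. Gzmk was at 153 against 11.9 CPM in wild type and 100.3 against 5.51 CPM in knockout (4.01, SE 0.42, adjusted p = 1.23e-06). Gzmm, granzyme M (3.33, adjusted p = 0.00465), S100a4 (1.71, adjusted p = 0.0137), Cx3cr1 (1.16, adjusted p = 0.0122), Cxcr3 (1.22, adjusted p = 0.0485) and Ly6c2 (1.51) were the others. Cxcr6, of the residency list, gave 116 against 0 UMIs in wild type and was at 146.7 against 60.6 CPM in knockout (2.76, SE 0.56, adjusted p = 0.00205).

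Interferon response genes were higher in CD8 T than in NK barcodes for 16 of 35 and lower for 0, with a median of 1.08. Ifi27l2a, an interferon-induced mitochondrial protein gene, was at 897 against 11.9 CPM in wild type and 680 against 27.6 CPM in knockout (5.82, SE 0.28, adjusted p = 1.07e-11). Slfn1 gave 187 and 90 UMIs against 0, at least 19.9-fold and 6.83-fold higher. Ly6a (4.75) and Bst2 (2.06), an antiviral tether, were also higher. In the high Ccl5 range 15 of 35 were higher, with a median of 1.22.

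NK receptors lay far lower in CD8 T. Of 9 genes of the NK list that the class rules did not use, 9 were lower, with a median of -6.53, or -6.19 with 2 at their bounds. Klra4 gave 0 against 341 UMIs in wild type and 0 against 229 in knockout, at least 356-fold and 336-fold lower. Klra7 gave 2 against 249 and 2 against 110 (-7.96, SE 0.48). Klrb1b, Klra1, Khdc1a, Phactr3, Kcnip3 and Sh2d1b1 gave 0 UMIs in CD8 T in both libraries. Rgs10 (290 and 162 UMIs against 0), Tmem108 (101 and 63) and Tdrp (92 and 67) were named on the other side, with Hist1h1b, a histone gene of dividing cells (188 and 6).

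The knockout and wild-type CD8 T barcodes were compared through their summed counts, 797520 and 1312852 UMIs. With 1 library each there is no test, and each ratio carries an exact conditional 95% interval for counting error alone. Of 6260 genes with at least 30 UMIs over both sums, 74 were at least 2-fold higher in knockout (1.18%) and 207 at least 2-fold lower (3.31%), and the median log2 ratio was -0.05. The interval excluded 0 for 70 and 175 of them. In 9 and 27 of them over 50% of the UMIs lay in 1 barcode. Without the barcode with the most UMIs of the gene in each library 61 and 184 were still 2-fold apart.

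The lists of T cell function had medians between -0.28 and 1.02, beside -0.05 over all genes. Of 32 cytotoxic genes 12 were higher and 20 lower in knockout, with a median log2 ratio of -0.28, and of 19 naive genes 6 were higher and 13 lower, with a median of -0.08. Residency genes had 3 higher and 7 lower (-0.24), interferon response genes 11 and 21 (-0.11), MHC class I pathway genes 3 and 15 (-0.11), immediate early genes 11 and 17 (-0.23), T cell receptor signalling genes 6 and 11 (-0.06), cytokine receptors 10 and 4 (0.10), nuclear respiratory chain genes 20 and 25 (-0.03) and glycolysis genes 8 and 5 (0.11). CD8 lineage genes had 3 higher and 6 lower (-0.27), with Cd8a and Cd8b1, which the rule used, counted among them. CD4 lineage genes had 5 and 2 (0.39), with a median of 0.12 without the top barcode of each gene. Without the barcodes with at least 50 UMIs of the cell cycle list they had 3 and 4 (-0.06). The inhibitory receptor list had 2 and 1 (1.02). That median is the ratio of Tox, a transcription factor also in the CD8 lineage list, and the receptors Ctla4 and Cd160 went opposite ways. Over all genes 2784 were higher and 3476 lower. With each barcode weighted equally (mean of CPM) the cytotoxic list had 16 higher and 16 lower, with a median of -0.00. Within the high Ccl5 range the list had 14 higher and 18 lower (-0.09), with Ccl5, which sets the range, counted among them.

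**Figure D4:**
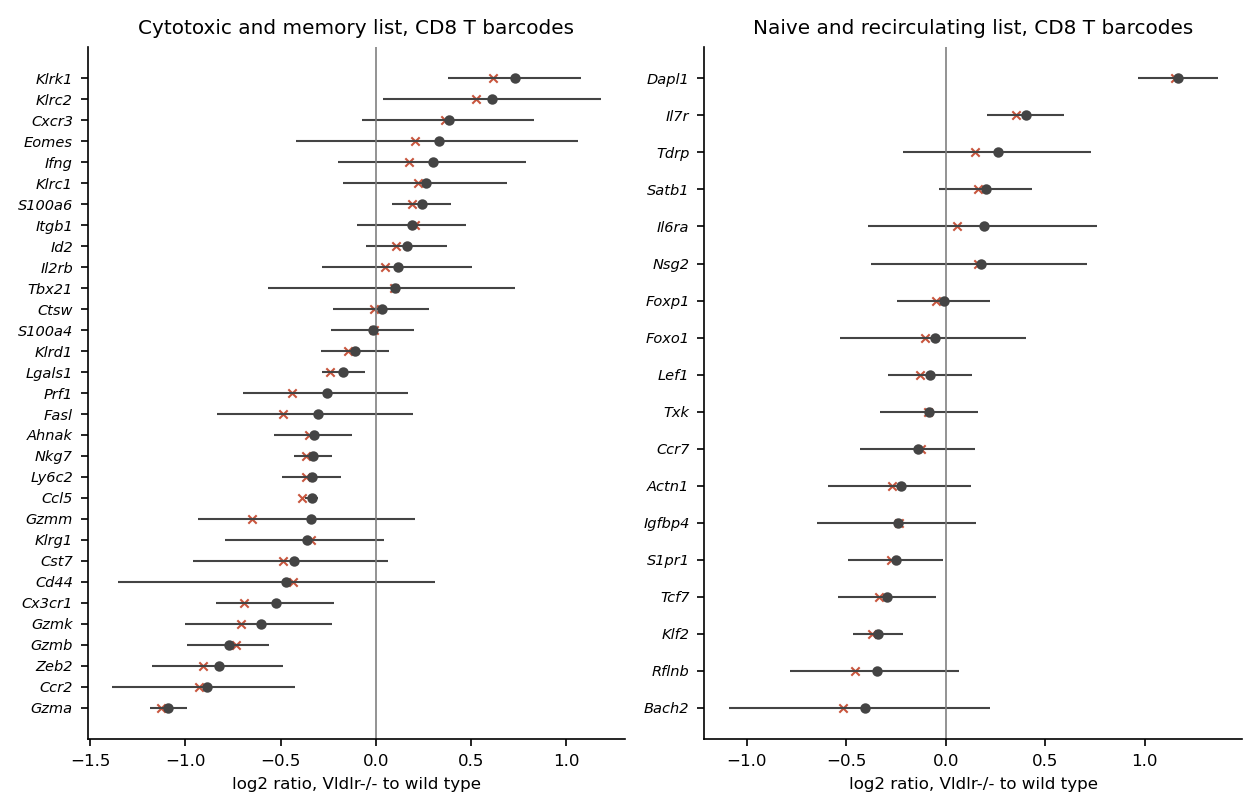
Log2 ratio of knockout to wild-type CD8 T sums for the genes of the cytotoxic and memory list (left) and of the naive and recirculating list (right). Dots carry 95% counting intervals, and crosses leave out the barcode with the most UMIs of the gene in each library. Klrk1 and Dapl1 lie to the right of 0 and Gzma and Gzmb to the left, also without that barcode.

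Single granzymes lay apart by more than the list. Gzma was at 2997 CPM in the wild-type sum and 1408 CPM in the knockout sum, a log2 ratio of -1.09 (-1.19 to -0.99), and it was seen in 54 of 117 and 24 of 74 barcodes. Within the high Ccl5 range it was at 6394 and 3591 CPM (-0.83, -0.93 to -0.74), and in NK barcodes at 14007 and 12891 CPM (-0.12, -0.19 to -0.05). In B barcodes, where it is background, it was at 66.9 and 10.3 CPM. In CD4 T barcodes its CPM, given above, was higher in knockout, where it was seen in 2 of 50 barcodes, against 12 of 72 in wild type. Gzmb was at 514 and 301 CPM (-0.77, -0.99 to -0.56), with -0.51 in the high range and 0.00 in NK barcodes. Ccl5 was at 14633 and 11587 CPM (-0.34, -0.37 to -0.30). Within the high range it was at -0.08, but that range is set by Ccl5 itself. The ratios of Gzma and Gzmb were smaller within the high range, which held 50.4% of wild-type and 43.2% of knockout barcodes.

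The NK cell list was lower in knockout beside these granzymes. The 6 of its 14 genes with enough UMIs were Gzma itself, Klre1, Klra9, Tyrobp, Fcer1g and Txk, which is also in the naive list. Of these 0 were higher and 6 lower, 5 of them at least 2-fold. The median log2 ratio was -1.22, or -1.12 without the top barcode of each gene. Txk was at -0.08, and most wild-type UMIs of Tyrobp and of Fcer1g lay in 1 barcode. Without the mixed barcodes 4 genes of the list were tested, 0 higher and 4 lower, with a median of -1.16. Klre1, an NK receptor gene, was at 155 and 72.7 CPM (-1.09, -1.54 to -0.67), and Klra9 was at -1.35 (-2.44 to -0.47). Within the high Ccl5 range 1 of the 6 was higher and 5 lower, with a median of -0.96. The part of NK cell RNA in the granzyme ratios was not tested.

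Zeb2, a transcription factor of terminal effector cells, was at 216 and 122 CPM (-0.82), with -0.46 in the high range and -0.45 in NK barcodes. Ccr2, the receptor for the monocyte chemokine CCL2, was at 117 and 62.7 CPM (-0.88, -1.39 to -0.43). Gzmk (-0.60, -1.0 to -0.23) and Cx3cr1 (-0.52, -0.84 to -0.22) were lower as well, and their intervals in the high range, -0.74 to 0.04 and -0.58 to 0.04, included 0. The intervals of Klrg1 (-0.36, -0.79 to 0.04), Prf1 (-0.25, -0.70 to 0.17) and Ifng (0.30, -0.20 to 0.79) included 0 over all barcodes.

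Other effector and residency genes were higher in knockout. Klrk1, which encodes the activating receptor NKG2D, was at 107 CPM in the wild-type and 177 CPM in the knockout sum (0.73, 0.38 to 1.08), and at 225 and 440 CPM within the high range (0.97, 0.62 to 1.32). In NK barcodes its ratio was -0.20 (-0.47 to 0.06). Cxcr6 was at 88.4 and 146.7 CPM (0.73, 0.35 to 1.11), with 0.87 (0.44 to 1.30) in the high range and 1.04 (0.13 to 2.01) in the low range. Klrc2 was at 0.61 (0.04 to 1.18), and Il18r1, the interleukin 18 receptor chain, at 32.0 and 76.5 CPM (1.25, 0.67 to 1.86). Tox, which is also raised in chronically stimulated T cells, was at 32.0 and 65.2 CPM (1.02, 0.41 to 1.65).

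Among the naive genes Dapl1 stood furthest apart. It was at 274 CPM in the wild-type and 616 CPM in the knockout sum (1.17, 0.97 to 1.37), seen in 41 of 117 and 33 of 74 barcodes. Within the low Ccl5 range it was at 491 and 986 CPM (1.01, 0.80 to 1.21), with a median per barcode of 251 and 624 CPM. In CD4 T barcodes it was at 285 and 346 CPM (0.28, -0.02 to 0.58). After thinning, 12.8% of wild-type and 29.2% of knockout CD8 T barcodes had it. Il7r was at 379 and 502 CPM (0.40, 0.21 to 0.60), while Klf2 (-0.34) and Tcf7 (-0.29) were on the other side of 0 and Lef1 was at -0.08.

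Among the genes named by the rule, Gdpd3, Gm35082, Gm8797, Trim12a and Trim5 lay apart in the CD4 T, NK and B barcodes as well as in CD8 T. Gdpd3, a phosphodiesterase gene (GRCm38 chr7:126766334-126775649), gave 2 UMIs in the wild-type CD8 T barcodes and 179 in the knockout ones, in 2 and 41 barcodes (log2 ratio 6.89, 5.33 to 10.3). It gave 0 and 107 UMIs in CD4 T, 2 and 36 in NK and 7 and 307 in B barcodes. The noncoding gene Gm35082 (chr7:100675088-100677760) gave 0 and 52 UMIs, in 0 and 35 barcodes, at least 28.5-fold higher, and 1 and 43, 0 and 7, and 0 and 124 in the other classes. Gm8797 on chromosome 3 gave 10 and 96 (3.92, 3.04 to 5.09), and 6 and 93, 5 and 21, and 10 and 240 in the others. Both Ccl5 ranges carried them, with Gdpd3 at 71 UMIs in the high and 108 in the low range of the knockout.

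In the opposite direction Trim12a, a gene of the TRIM family of antiviral proteins (chr7:104299894-104315466), gave 152 UMIs in wild type and 2 in knockout, in 73 and 2 barcodes (-5.21, -8.59 to -3.65). It gave 89 and 0 in CD4 T, 40 and 0 in NK and 232 and 3 in B barcodes. Its neighbour Trim5 (chr7:104263386-104288094) gave 38 and 0, at least 7.69-fold lower, and 13 and 0, 12 and 0, and 67 and 1 in the others. Art2b, an ADP-ribosyltransferase of T cells (chr7:101576970-101585600), gave 43 and 3 UMIs in 28 and 3 barcodes (-2.92, -5.46 to -1.48), and 16 and 3 in CD4 T. Gdpd3, Gm35082, Trim12a, Trim5 and Art2b all lie on chromosome 7. Bbc3 and Apoe, named below, lie there too, and Gm8797 lies on chromosome 3. The share of all tested genes that lie on chromosome 7 is not given here. Trim12a, Trim5 and Gm8797 have close copies in the genome, and the counting could have split their reads.

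**Figure D5:**
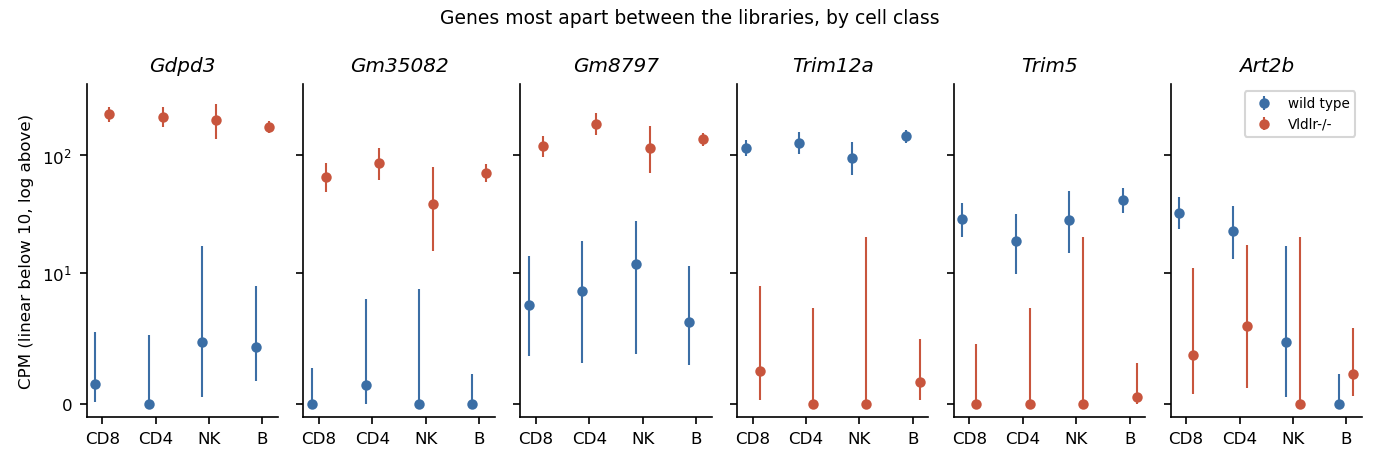
CPM of 6 genes in the CD8 T, CD4 T, NK and B classes of each library, with 95% Poisson intervals. The axis is linear below 10 CPM and logarithmic above. Gdpd3, Gm35082 and Gm8797 are higher in the knockout and Trim12a and Trim5 in the wild type in all 4 classes, and Art2b is seen mainly in the wild-type T classes.

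The other genes named as higher in knockout rested on few UMIs. Ctse, a cathepsin gene, gave 12 and 30 UMIs (2.01, 1.03 to 3.14), and 13 and 95 in B barcodes. Ubxn11 (14 and 34), Lrrcc1 (12 and 24), Klhl42 (12 and 24), Zfp52 (14 and 26), Rrm2b (19 and 34), Iqcc (14 and 24) and Bbc3, which encodes the death protein PUMA (19 and 32), had log2 ratios between 1.46 and 1.97. Their intervals excluded 0, and none had more than 5 UMIs in 1 barcode.

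Genes of rods were higher in the knockout barcodes and are named as genes of other cells. Prph2 gave 4 and 45 UMIs, 31 of them in 1 barcode, Sag 17 and 106, with 53 in 1, Guca1b 3 and 33, Guca1a 4 and 33, and Rcvrn 8 and 38. All 8 rod list genes tested were at least 2-fold higher, with a median of 2.85, or 1.67 without the top barcode of each gene. On the other side stood Lyz2 (609 and 18 UMIs, 577 in 1 wild-type barcode, -4.32, and -0.17 without it), Cybb (37 and 2), Fcer1g (56 and 2), Col8a1 (33 and 0) and Apoe (343 and 19, -3.42). Of the wild-type UMIs 33 of Cybb, 44 of Fcer1g, 27 of Col8a1 and 124 of Apoe lay in 1 barcode each. Without the top barcodes Cybb was at -0.87, Fcer1g at -2.34, Col8a1 at -2.98 and Apoe at -2.93. The CPM of each of these genes in CD8 T barcodes was under 0.25 of that in barcodes without Cd3 genes, which is the limit in the rule for named genes. The part of RNA from other cells in these ratios was not tested.

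The remaining genes named as lower in knockout were mostly genes of division, and few barcodes carried them. The cell cycle list reached 50 UMIs in 5 wild-type barcodes (400, 342, 264, 254 and 230, the next having 33) and 2 knockout barcodes (143 and 70, the next having 40). Of these, 4 of 5 and 1 of 2 lay in the high Ccl5 range, and none was a mixed barcode. They held 40 of the 53 wild-type UMIs of Mki67, the proliferation antigen Ki-67, and 91 of the 104 of Top2a, a topoisomerase of dividing cells. In knockout the counts were 2 of 7 and 0 of 15. Of 17 cell cycle genes tested 0 were higher and 17 lower in knockout, with a median of -0.81 and 8 at least 2-fold lower. Hmgb2, a chromatin protein gene of the list, was seen in 110 of 117 and 69 of 74 barcodes, with up to 148 and 100 UMIs in 1. The 2 knockout barcodes reached the limit with 0 UMIs of Top2a and 2 of Mki67. The part of Hmgb2 in this was not tested, and they are not called dividing cells here. Without these 7 barcodes 5 of 7 were higher and 2 lower, with a median of 0.16.

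Histone genes of S phase were lower in knockout as well. Hist1h2ap gave 768 and 25 UMIs (-4.19, -4.86 to -3.65), with 279 in 1 barcode, Hist1h1b 188 and 6 (-4.14), Hist1h2ae 163 and 8 (-3.55), Hist1h2ab 68 and 1, and Hist1h3c 37 and 0. Pclaf, a partner of the replication clamp, gave 92 and 2 (-4.49) and Cdk1, the mitotic kinase, 31 and 2 (-2.94). Without the 7 barcodes Hist1h2ae was at 0.67. Xcl1, a chemokine of CD8 T cells for dendritic cells, gave 71 and 2 UMIs, with 63 in 1 barcode (-4.12, and -1.78 without it), and Trdc gave 44 and 3 in 4 and 1 barcodes (-2.95). Histone genes are near copies of one another, so the split of reads among them is uncertain.

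Stress and interferon genes differed in how much of a sum lay in 1 barcode. Jun, an immediate early factor, was at 106 and 33.9 CPM (-1.62), with 69 of 139 wild-type UMIs in 1 barcode, and at -1.06 without the top barcodes. Dusp1 (-0.93, and -0.79 without them), Zfp36 (-0.95 and -0.80) and Fos (-0.73 and -0.72) moved less. Jun was at 262 and 92.0 CPM in CD4 T barcodes. Ifitm3, an antiviral membrane gene, was at -0.98, with 86 of 121 wild-type UMIs in 1 barcode, and at -0.15 without it. Ly6a was at 130 and 75.2 CPM (-0.78), and it was lower in knockout in CD4 T (-1.19) and B barcodes (-1.36) too. Igtp (0.78) and Ifit1 (0.94, 22 of 41 knockout UMIs in 1 barcode) were on the other side. H2-D1 (-0.12), B2m (-0.13) and H2-K1 (-0.05) lay near the all-gene median.

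T cell receptor variable genes gave a partial view of the receptors, since the 3′ reads reach them in a minority of cells. A Trbv gene, which encodes the variable part of the β chain, was seen in 41 of 117 wild-type barcodes (35.0%, 26.5 to 44.4) and 26 of 74 knockout barcodes (35.1%, 24.4 to 47.1), with 18 and 13 different genes of the 35 in the table. NK barcodes had none, and B barcodes 0 of 252 and 1 of 272. In the high Ccl5 range 12 genes were seen in 18 barcodes of wild type and 6 genes in 10 barcodes of knockout, and in the low range 13 in 23 and 12 in 16. Trbv12-2 (9 barcodes), Trbv13-2 (7) and Trbv15 (6, of which 5 in the high range) led in wild type. Trbv12-1 (4, all 4 in the high range) and Trbv29 (4) led in knockout. Without joined sequences no clone could be named.

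Trav genes, of the α chain, were seen in 35 of 117 and 31 of 74 barcodes, with 25 and 21 different genes of 128. Trav14d-3-dv8 led in wild type (5 barcodes, of which 3 in the high range). Trav8n-2 led in knockout (7, all 7 in the high range, where 16 of 32 barcodes had a Trav gene). Trgv2, of the γ chain, was seen in 8 of 117 wild-type barcodes (6.84%, 3.0 to 13), with 17 UMIs, all in the 59 barcodes of the high range. It was seen in 0 of 74 knockout barcodes, which allows a share of barcodes with a UMI of up to 4.86% and sets no limit on cells that express it, and in 0 CD4 T, NK and B barcodes of either library. The intervals of the 2 libraries overlapped.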

How the data were processed

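The values were UMI counts per gene and barcode, whole numbers used as deposited. Per the file headers, Cell Ranger 6.0.2 made the 1-month and 7.0.1 the 2-month counts. Per the submitters' processing notes it was version 3.0, with mm9 and Seurat 4.0. The sources used here do not say whether intron reads were counted. Of 32285 gene identifiers 32158 matched GENCODE M21 (GRCm38), the source of the gene coordinates, and promoters came from RefSeq's table for GRCm38.p6.

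Counts were summed per library and class and scaled to CPM. NK barcodes had at least 2 of Ncr1, Klrb1c, Klre1, Klra8 and Klrb1a and B barcodes at least 2 of a list of B cell genes (Cd79a, Cd79b and Ms4a1 among them), without Cd3 genes. Classes were compared with edgeR's quasi-likelihood test (TMM, library as block, Benjamini-Hochberg over all genes; at least 30 UMIs over the sums, 20 for the Ccl5 split). Knockout and wild type, with 1 library each, were compared by the log2 ratio after adding 0.5 counts, with no test. Intervals are exact at 95% and cover counting error only. Barcodes of 1 library are not replicates, and p-values measure only the spread between the 2 libraries.

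Named were the 12 genes per direction with the largest log2 ratio (at least 2-fold, interval excluding 0, CPM at least 0.25 of that in barcodes without Cd3 genes), up to 5 per direction failing the last point alone, and the 12 (CD4 T), 8 (NK) or 10 (Ccl5 split) per direction with the largest fold changes called and moving alike in both libraries, besides list members. Barcodes, lists and named-gene rules were chosen with earlier results of these data known. Some genes that these rules name are not reported here; counts over lists include them, and the plots leave them out.

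For the fits, counts were simulated from 1 pooled profile for all classes with a fixed dispersion. A small set of genes, each with at least 60 expected UMIs, was changed. The shares recovered may therefore not hold for the real classes or for genes with fewer UMIs. Of the changed genes 4-fold changes were recovered for 83% (CD8 against CD4 T, 9707 genes fitted), 68% (NK, 9722) and 95% (Ccl5 split, 7167). For 2-fold changes the shares were 35%, 17% and 38%. In a simulation of the knockout ratio (6221 genes) every 4-fold change (100.0%) and 1.46% of equal genes passed. Software was R 4.3.3 (edgeR 4.0.16, DESeq2 1.42.0) and Python 3.11.15 (pandas 2.3.3, scipy 1.17.1, numpy 2.4.6, matplotlib 3.10.9).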

Additional observations from a re-analysis of the deposited data

Results flagged for a closer look

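The 2-month libraries were not used in any comparison, yet CD8 T barcodes occurred in them. In the 2-month Vldlr-/- library 6 of 1140 kept barcodes met the same rule (0.526%), and in the 2-month wild-type library 2 of 2047 did (0.0977%). Of the 6, 2 had at least 10 UMIs of Ccl5 (252 UMIs in all), 1 had Gzma (393 UMIs), and 4 had Ccr7 (15 UMIs). Cx3cr1 had no UMI in them. Of the 2 wild-type barcodes 1 had Ccl5 (15 UMIs). These counts are too few for any comparison, and the ages also differ in the version of the counting software.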

How the results depend on the processing

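No paired analysis of knockout and wild type was possible because the labels give no replicate numbers and each genotype has 1 library. The class comparisons took the library as a block, and leaving a library out would leave them no residual degrees of freedom. Alternatives by Ccl5 range, without mixed barcodes or those with at least 50 UMIs of the cell cycle list, and by mean CPM were chosen after seeing the data. The 74 genes higher in knockout became 18 with at least 60 UMIs, 12 with barcodes thinned to 1000 UMIs (768 genes tested) and 139 by mean CPM per barcode. The 207 lower became 60 and 19 under the first pair, 125 in the high and 136 in the low Ccl5 range. Shares with 1000 genes required were 9.92% (wild type) and 5.11% (knockout). The 486 calls against CD4 T became 216 with DESeq2 (215 shared, 957 genes without an adjusted p) and 238 in the low Ccl5 range (164 shared), and with DESeq2 size factors the split was 238 higher and 243 lower. The 924 against NK became 474 in the high range (406 shared). The 638 of the Ccl5 split became 190 with DESeq2 (190 shared, 3596 without an adjusted p), 242 thinned and 409 with no block. Other settings stayed within 1.5 times. Signs turned for Ckap4 (0.047 against CD4 T without mixed barcodes), Klra9 (-2.74 in the low range), and, in knockout against wild type, Cybb (0.039), Lyz2 (0.68) and Trdc (0.16) in the low range, Fcer1g thinned (2.29) and Hist1h2ae without the barcodes rich in cell cycle UMIs (0.67). The causes were not tested. TMM moved the knockout ratio by -0.03. Depth limits genes under 30 UMIs, which were not compared.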
